A study of Mus musculus with 4 samples.

Results

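The thyroid hormone genes examined here encode proteins that carry the hormone into brain cells, activate, inactivate or bind it, or answer to it. They were defined as the array's probe sets annotated with a single gene symbol among Dio2, Dio3, Slco1c1, Crym, Thra, Thrb, Klf9 and Hr. This rule found 18 of 45037 probe sets, which represented 7 of the 8 genes and 7 of the 18193 genes with such a probe set. Dio2 and Thra had 3 probe sets each, Klf9 had 7, Hr had 2, and Slco1c1, Crym and Thrb had 1 each. Dio3, which encodes the deiodinase that inactivates the hormone, had 0 and was not analysed here.

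Total RNA came from hippocampi dissected from mouse pups at postnatal day 2, and it was hybridised to 4 Affymetrix arrays. There were 2 arrays labelled ZBTB20 knockout and 2 arrays labelled wildtype, from littermate controls. ZBTB20 is a zinc finger transcription factor, and the study set out to find the genes that depend on it during hippocampal development. The knockout allele, the cells in which the gene was removed, the strain, and the number of pups behind an array are not stated in the labels. Part of the spread between arrays of a group may therefore be technical.

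Thyroid hormone reaches the brain mainly as thyroxine, the prohormone, which crosses vessel walls and glial membranes through transporters. Deiodinase 2, known mainly from glial cells in the brain, turns it into the active hormone triiodothyronine, and deiodinase 3 degrades both. Triiodothyronine binds nuclear receptors that sit on the DNA of responsive genes, and the hormone is known to be needed for the timing of neuronal and glial maturation around birth in rodents.

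The arrays lay on 2 scales of signal, shared by arrays of the same replicate number. The trimmed mean signal (2% removed at each end) was 497 on the knockout and 498 on the control array of replicate 1, and 156 on the knockout and 158 on the control array of replicate 2. The spread differed too. The SD of log2 signal was 2.91 on the knockout and 2.72 on the control array of replicate 1, against 1.65 and 1.68 in replicate 2. A log2 difference of a given size is thus not directly comparable between the replicate numbers. Knockout and control were therefore compared within each replicate number, called pair 1 (replicate 1) and pair 2 (replicate 2). Such a comparison has a single array on each side and no p-value. Of 9 Zbtb20 probe sets, 3 were lower on the knockout array in pair 1, 2 were lower in pair 2 and 0 in both. The signal of the targeted gene was thus no check of the genotype labels, and the labels do not name the deleted exons. All directions below follow the labels. If knockout and control were exchanged in 1 pair, opposite directions in the pairs would become the same direction, and the reverse. Of 10 listed genes of hippocampal and cortical neurons 8 were on the array, and 0 of these lay below the 20th percentile of signals on any array. The replicate 1 arrays also carried liver transcripts. The summed signal of 7 liver genes was 19121 on the knockout and 56270 on the control array of replicate 1, against 297 on the knockout and 291 on the control array of replicate 2.

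Dio2, the activating deiodinase, had the widest differences within the pairs among the brightest probe sets of these genes, and its direction differed between the pairs. Its brightest probe set, 1418937_at, had a signal of 766.9 on the knockout and 2287.1 on the control array of replicate 1. On the replicate 2 arrays it had 441.8 on the knockout and 123.99 on the control array. The knockout signal was thus 0.335 times the control signal in pair 1 and 3.56 times in pair 2. Placed among all probe sets of its own array, which removes the scale, it stood at the 80.1 and 90.2 percentiles on the knockout arrays and at 93.1 and 66.8 on the control arrays of replicates 1 and 2. Both control values lay outside the knockout values, one above and one below, so the groups overlapped.

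The other probe sets of Dio2 matched the brightest one in pair 1 and differed from it in size in pair 2. At 1426081_a_at the signal was 310.6 on the knockout and 964.9 on the control array of replicate 1, and 474.81 on the knockout and 430.49 on the control array of replicate 2. At 1418938_at it was 46.6 on the knockout and 193.4 on the control array of replicate 1, and 115.18 on the knockout and 65.15 on the control array of replicate 2. The ratios of knockout to control were therefore 0.322 and 0.241 in pair 1, close to that of the brightest probe set. In pair 2 they were 1.10 and 1.77. Differences were also computed as log2(signal + 32.56), knockout minus control, where the pseudocount of 32.56, the 20th percentile of all values, makes the differences of dim probe sets smaller. On this scale the pair 1 differences of the 3 probe sets were -1.54, -1.54 and -1.51. Their pair 2 differences were 1.60, 0.13 and 0.60, in the same order of probe sets.

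Among the 27022 probe sets whose mean passed a filter at the 40th percentile, 1418937_at had the 195th lowest difference in pair 1 and the 17th highest in pair 2. In the kept set, 2.69% of probe sets were over 2-fold lower on the knockout array in pair 1, and 0.248% were over 2-fold higher in pair 2. Only 26 of them, 0.0962%, met both criteria, and 1418937_at was the 1 member probe set among them.

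The genes closest to Dio2 in the pair of differences were Slc26a7, Dcn and Nr4a2. Closeness was the Euclidean distance in the plane of the pair 1 and pair 2 log2 differences over 12581 genes, each represented by its brightest kept probe set, and it thus rests on 2 values per gene. The distance weighs both pairs equally, although log2 differences are not directly comparable between them, and other weights were not tried. Slc26a7, an anion transporter gene, differed by -1.48 in pair 1 and 1.91 in pair 2 and lay at a distance of 0.32. Dcn, which encodes the matrix proteoglycan decorin, differed by -1.74 and 1.36 at the same rounded distance of 0.32. Nr4a2, an orphan nuclear receptor gene, differed by -1.61 and 1.97 at a distance of 0.38.

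Slco1c1, which encodes a thyroxine transporter of brain vessels and choroid plexus, had the same order of directions as Dio2 and smaller differences. Its only probe set, 1423343_at, had a signal of 2967.5 on the knockout and 4075.8 on the control array of replicate 1. On the replicate 2 arrays it had 954.76 on the knockout and 656.01 on the control array. The knockout signal was 0.728 times the control signal in pair 1 and 1.46 times in pair 2, or log2 -0.45 and 0.52. Neither difference reached 2-fold, and the pair 2 value was the 383rd highest of 27022 while the pair 1 value was the 3666th lowest. The percentiles on the knockout arrays, 94.8 and 96.3, lay between those on the control arrays, 96.5 and 93.7.

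The sequences upstream of Dio2 and Slco1c1 are shown for 2 genes that were lower on the knockout array in pair 1 and higher in pair 2. This order is common, since 30.5% of the 27022 kept probe sets had it. Among the members it also held for Hr 1435950_at (log2 -0.20 and 0.04) and Thra 1426997_at (-0.16 and 0.00036). Each line gives the 250 bases before the start of the RefSeq transcript, build GRCm38.p6, 5′ to 3′ on the strand of the gene, with capitals at matches to the motifs searched. Dio2 lies on the minus strand, at chr12:90739039-90739288, and Slco1c1 on the plus strand, at chr6:141524104-141524353.
Dio2: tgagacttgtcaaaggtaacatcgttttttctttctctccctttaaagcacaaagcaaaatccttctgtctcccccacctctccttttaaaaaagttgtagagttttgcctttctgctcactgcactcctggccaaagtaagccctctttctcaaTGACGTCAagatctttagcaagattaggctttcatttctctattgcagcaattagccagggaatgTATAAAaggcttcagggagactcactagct
Slco1c1: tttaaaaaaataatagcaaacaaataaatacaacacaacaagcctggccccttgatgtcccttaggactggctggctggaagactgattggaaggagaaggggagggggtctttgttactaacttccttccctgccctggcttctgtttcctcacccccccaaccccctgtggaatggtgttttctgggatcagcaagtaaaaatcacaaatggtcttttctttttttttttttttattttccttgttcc

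The motifs were searched on both strands. They were the cAMP response element TGACGTCA, the thyroid hormone response half-site AGGTCA, the direct repeat of that half-site with 4 bases between its copies, and the TATA box core TATAAA. A direct repeat also counts as the half-site. The Dio2 window held the cAMP response element 95 to 88 bases before the start and the TATA box core 30 to 25 bases before it. Of 32851 windows of this length, 1.55% held the first and 12.4% the second. The Slco1c1 window held 0 matches to the 4 motifs. Sequences were listed for 5 of the 8 genes, in 6 windows. Among them the half-site, found in 14% of all windows, occurred in 1 of the windows of Thrb, and the direct repeat, found in 0.0152% of all windows, occurred in none of the 6. A match describes letters and does not show a bound site.

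Crym went the opposite way to Dio2 in both pairs. It encodes mu-crystallin, a protein that binds triiodothyronine in the cytosol and is abundant in forebrain neurons. Its only probe set, 1416776_at, had a signal of 10892.3 on the knockout and 5440.6 on the control array of replicate 1. On the replicate 2 arrays it had 2226.45 on the knockout and 4825.66 on the control array. The knockout signal was thus 2.002 times the control signal in pair 1 and 0.461 times in pair 2. The probe set was among the brightest of every array, at the 99 and 98.9 percentiles on the knockout arrays and at 97.6 and 99.7 on the control arrays, and the groups overlapped.

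The pair 1 difference of Crym was log2 0.997, just under 2-fold on this scale, and the 459th highest of 27022. The pair 2 difference was -1.10, the 55th lowest, where 0.27% of probe sets were over 2-fold lower on the knockout array. The genes closest to Crym by the same distance were 2900055J20Rik at 0.997 and -1.05, Meig1, a gene needed for sperm formation, at 0.94 and -1.04, and Rnf182, which encodes a RING finger ubiquitin ligase, at 0.94 and -1.18. The Meig1 signals were dim on the replicate 2 arrays, at 16.74 on the knockout and 68.71 on the control array.

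**Figure D1:**
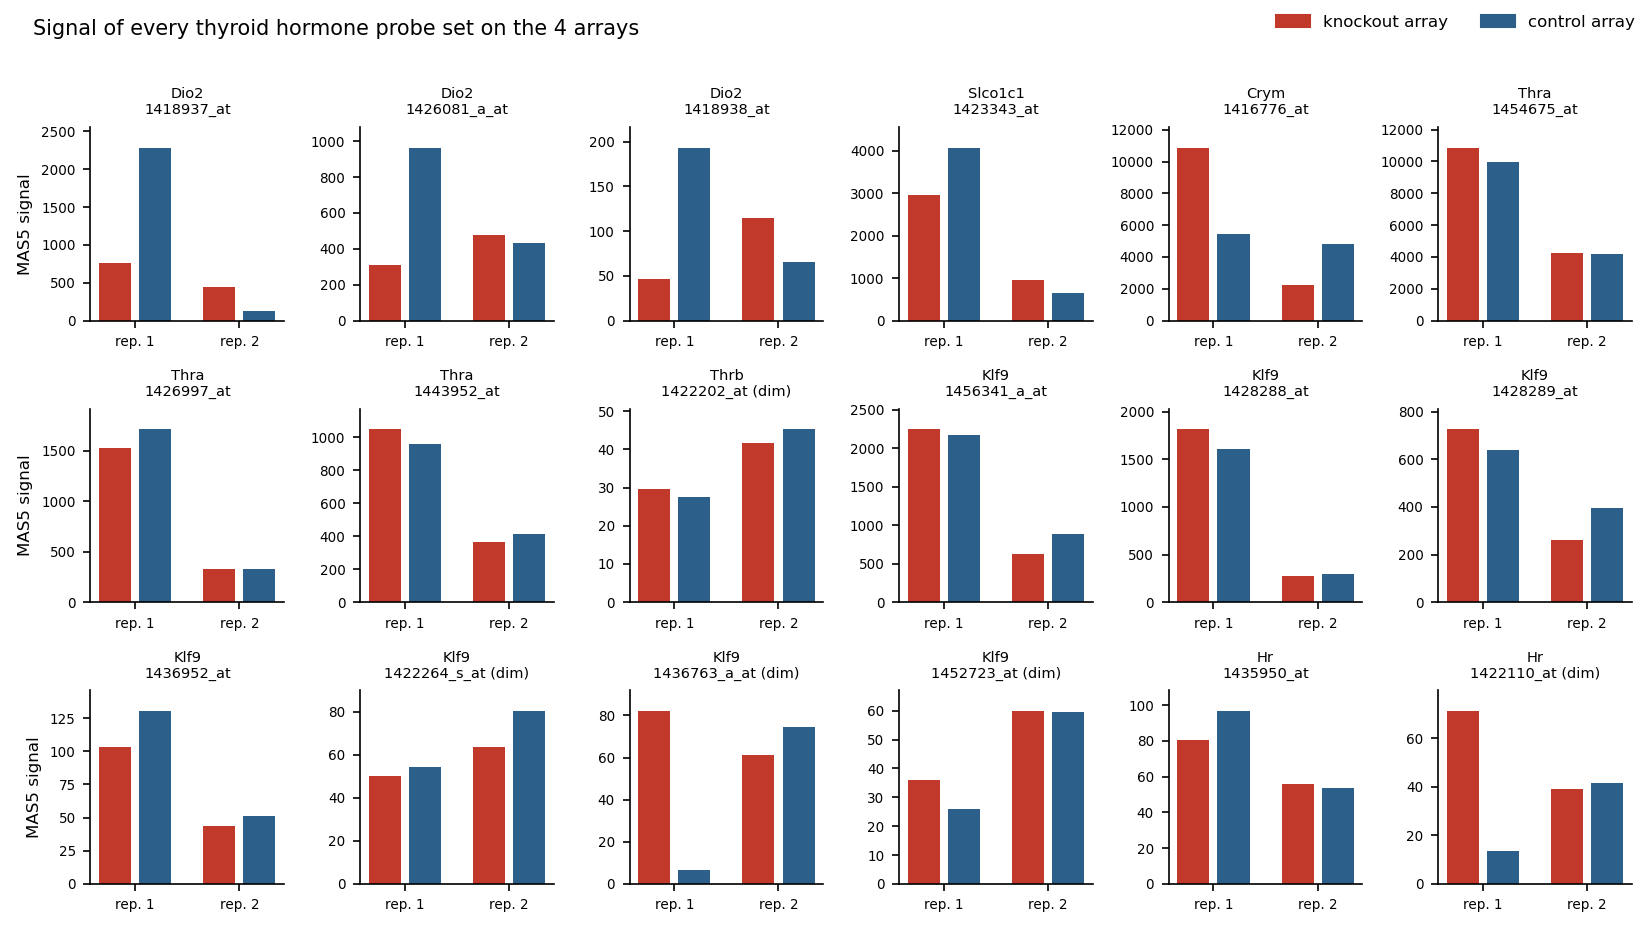
Signal (MAS5, linear scale from 0, a separate axis for each panel) of the 18 probe sets on the 4 arrays, with the knockout array left of the control array in each replicate number and dim marking probe sets below the filter. The 3 Dio2 probe sets are lower on the knockout array in replicate 1 and higher in replicate 2, Crym is the reverse, and the brightest Thra probe set differs by a ratio of 1.09 in pair 1 and 1.02 in pair 2.

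The receptor gene Thra stayed close to equal in both pairs. It encodes the thyroid hormone receptor alpha, the predominant receptor form of the developing brain, and by alternative splicing also a variant that does not bind the hormone. The brightest probe set, 1454675_at, had a signal of 10868.7 on the knockout and 9983.4 on the control array of replicate 1, and of 4245.54 on the knockout and 4148.82 on the control array of replicate 2. The ratios of knockout to control were 1.09 and 1.02. At 1426997_at they were 0.891 and 1.0003, and at 1443952_at 1.09 and 0.879. The probe sets of Thra therefore disagreed on direction, and over all 3 the log2 differences ran between -0.17 and 0.12.

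Thrb, which encodes the thyroid hormone receptor beta, was dim on every array. Its probe set 1422202_at had a signal of 29.6 on the knockout and 27.4 on the control array of replicate 1, and of 41.76 on the knockout and 45.24 on the control array of replicate 2. These values lay at the 22.7 and 26 percentiles on the knockout arrays and at the 19.9 and 30.1 percentiles on the control arrays. The probe set did not pass the filter, and a difference in Thrb was not detectable at this signal.

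Klf9, a transcription factor gene that triiodothyronine induces in rodent neurons, had 3 bright probe sets with a slightly higher signal on the knockout array in pair 1 and a lower one in pair 2. At 1456341_a_at the signal was 2245.7 on the knockout and 2172.9 on the control array of replicate 1, and 621.16 on the knockout and 890.11 on the control array of replicate 2. At 1428289_at it was 725.6 on the knockout and 640.3 on the control array of replicate 1, and 259.83 on the knockout and 394.53 on the control array of replicate 2. At 1428288_at it was 1815.9 on the knockout and 1609.3 on the control array of replicate 1, and 277.34 on the knockout and 291.42 on the control array of replicate 2. The ratios of knockout to control in pair 2 were thus 0.698 and 0.659 at the first 2 of these probe sets and 0.952 at the last. In pair 1 they were 1.03, 1.13 and 1.13.

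Of the 4 other Klf9 probe sets 3 did not pass the filter, and the fourth, 1436952_at, was lower on the knockout array in both pairs, at log2 -0.26 and -0.15. The widest ratio of the whole gene came from a dim probe set. At 1436763_a_at the signal was 82.1 on the knockout and 6.4 on the control array of replicate 1, which is a ratio of 12.8, against 61.11 on the knockout and 74.55 on the control array of replicate 2. The control value of 6.4 lay at the 5.39 percentile of its array, while the bright Klf9 probe sets of that array showed ratios between 1.03 and 1.13.

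Hr, which encodes the hairless corepressor and is a direct target of the hormone in rat brain, was dim as well. At 1435950_at the signal was 80.4 on the knockout and 96.8 on the control array of replicate 1, and 55.83 on the knockout and 53.59 on the control array of replicate 2. At 1422110_at, which did not pass the filter, it was 71.2 on the knockout and 13.7 on the control array of replicate 1, and 39.07 on the knockout and 41.44 on the control array of replicate 2. The log2 differences of 1435950_at were -0.20 and 0.04. The probe sets of Hr had opposite directions within each pair.

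**Figure D2:**
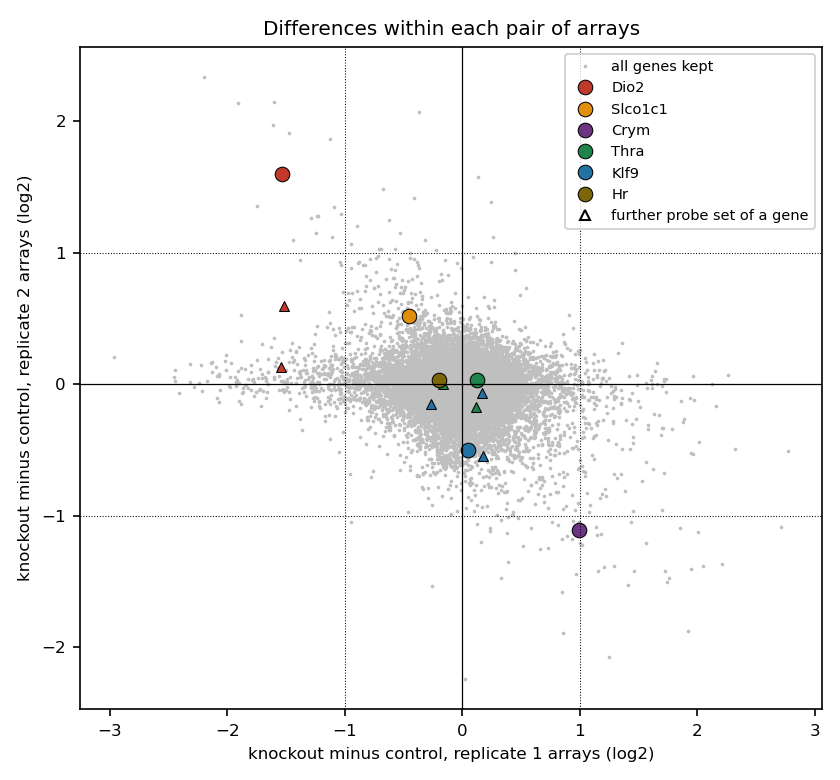
Knockout minus control, as log2(signal + 32.56), for the replicate 1 arrays (horizontal) and the replicate 2 arrays (vertical), with 12581 genes in grey, the brightest probe set of each member gene as a circle and its further kept probe sets as triangles. Dio2 (-1.54, 1.60) and Crym (0.997, -1.10) lie on opposite sides of the centre and the dotted lines mark 2-fold.

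Counted over the 13 member probe sets that passed the filter, 6 were lower on the knockout array in pair 1 and higher in pair 2, against 30.5% of all 27022 kept probe sets. The reverse order was seen for 5, against 23.3%. One was higher in both pairs (Thra 1454675_at) and 1 was lower in both (Klf9 1436952_at), where the backgrounds were 24.6% and 21.6%. The members' median log2 difference was -0.16 in pair 1 and 0.00036 in pair 2, beside -0.02 and 0.02 over all kept probe sets. Probe sets of 1 gene share their transcript, so these counts are of probe sets and not of independent genes. Of all 18 member probe sets, 0 had both knockout percentiles on one side of both control percentiles, which was the case for 9.27% of the kept probe sets.

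Across all 4 arrays, 0 of the 13 member probe sets tested passed an adjusted p of 0.05 in limma's test, and 0% of 27022 probe sets did. At an unadjusted p under 0.05, limma found 0 member probe sets and 5 probe sets in all. The knockout minus control difference of Dio2 1418937_at was log2 0.03 ± 1.51 (SE, n = 2 per group; limma, adjusted p = 1), with a 95% interval of -2.92 to 2.99. For Crym it was -0.05 ± 1.94 (interval -3.86 to 3.76), and for Slco1c1 0.03 ± 1.79 (interval -3.47 to 3.54). The error of this fit holds the difference between the 2 scales of signal, and its intervals span changes far over 2-fold in either direction.

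With the replicate number as a block, which removes that difference, limma called 0% of 27022 probe sets and 0 of the 13 members, while 330 probe sets and 0 members had an unadjusted p under 0.05. The 95% interval of Dio2 1418937_at was then -1.43 to 1.49 and that of Crym -1.07 to 0.96. That of Thra 1454675_at was -0.30 to 0.45. For Dio2 and Crym the mean of the pairs was near 0 because the pairs had opposite signs, and for Thra because both differences were small. The smallest unadjusted p of a member was 0.0902, at Dio2 1426081_a_at (-0.70 ± 0.36, SE, n = 2 per group; limma with the block, adjusted p = 0.9999).

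Other genes of thyroid hormone transport and action mostly lay within 2-fold in both pairs, as did most of all 12581 genes. Of 33 listed genes, 30 had a probe set with a single symbol and 26 passed the filter. Limma called 0 of these 26 with or without the block. Of the 26, 1 was over 2-fold apart in either pair, against 4.43% of all 12581 genes. The medians of the list were log2 -0.15 in pair 1 and -0.01 in pair 2, beside -0.01 and -0.00063 over all genes. Opposite directions in the pairs occurred for 9 of the 26, against 53.6% of all genes.

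The gene past 2-fold was Ttr, which encodes transthyretin, the thyroxine carrier that the choroid plexus secretes into the cerebrospinal fluid. Its signal was 74106 on the knockout and 62551 on the control array of replicate 1, and 9232 on the knockout and 3505 on the control array of replicate 2, so the differences were log2 0.24 and 1.39. The liver also makes transthyretin, and the part of liver RNA in the replicate 1 signals was not tested. Of the 5 measured genes of transport and carriage, Slc3a2 and Slc7a5, the subunits of an amino acid transporter that also accepts the hormone, were at 0.06 and -0.04 and at 0.29 and 0.01. Secisbp2 and Sephs2, which serve the synthesis of selenoproteins such as the deiodinases, were at 0.02 and 0.13 and at -0.04 and -0.23.

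Among 10 measured receptor partners and coregulators, 5 were lower on the knockout array in both pairs and 3 higher in both, where 24% and 22.4% of all 12581 genes were. The coactivator genes Ncoa1 and Ncoa2 were at 0.16 and -0.13 and at 0.28 and 0.12, and Hdac3, which encodes the histone deacetylase of the corepressor complex, was at 0.26 and 0.03. Among 9 measured genes known to respond to the hormone in rodents, 4 were lower in both pairs and 0 higher in both, against the same 24% and 22.4%. Camk4, a calmodulin-dependent kinase gene, was at -0.18 and 0.37, Nrgn, the postsynaptic protein neurogranin, at 0.53 and -0.62, and Kcnj10, a glial potassium channel gene, at -0.34 and -0.07. Nrgn thus had the directions of Crym, and Camk4 those of Dio2. None of these genes passed limma's test.

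**Figure D3:**
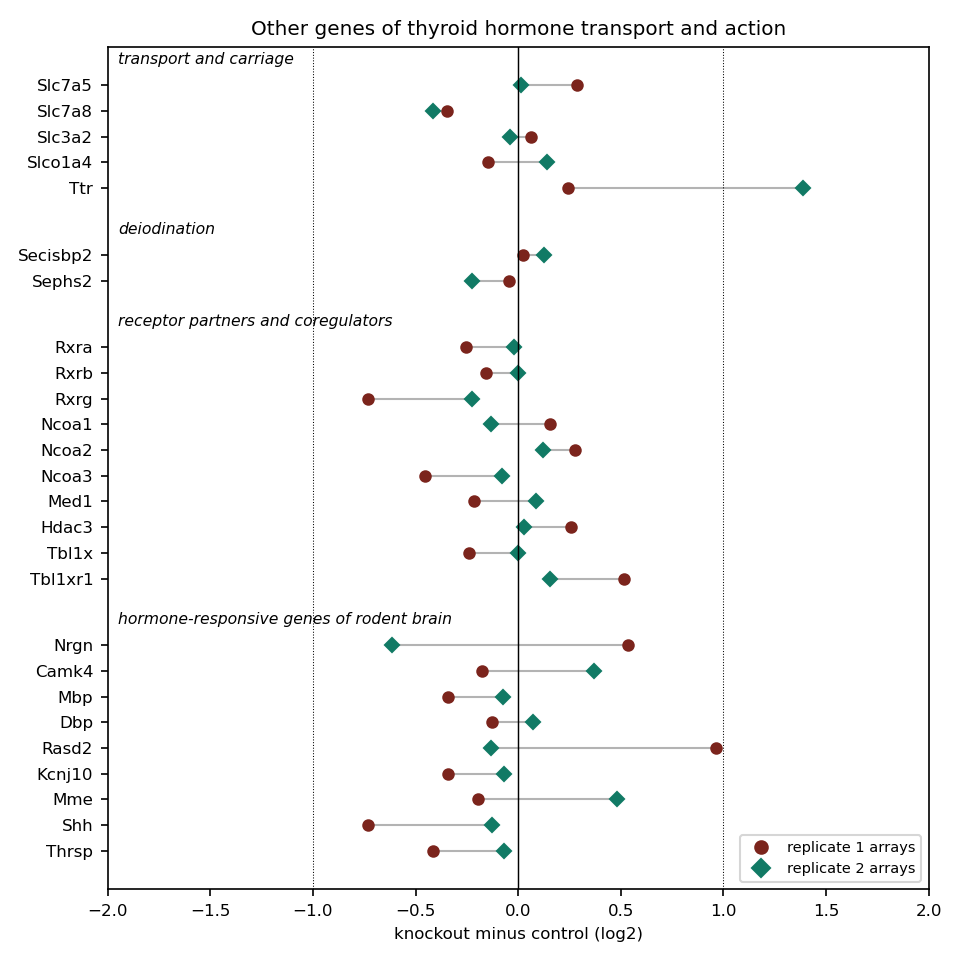
Knockout minus control, as log2(signal + 32.56), of the 26 measured genes of the wider thyroid hormone list, grouped by role, with circles for the replicate 1 arrays and diamonds for the replicate 2 arrays. Ttr in the replicate 2 arrays (1.39) is the only point beyond the dotted 2-fold lines.

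Markers of neighbouring tissue, in a list whose direction was already known from these data, had the directions of Dio2 and Slco1c1. The summed signal of 7 genes of the subiculum and retrosplenial cortex, which adjoin the hippocampus, was 13059 on the knockout and 37957 on the control array of replicate 1, a ratio of 0.344. On the replicate 2 arrays it was 9558 on the knockout and 2339 on the control array, a ratio of 4.09. This sum is mostly Nts, with 21361 on the control array of replicate 1 and 5950 on the knockout array of replicate 2. All 7 were lower on the knockout array in pair 1 and higher in pair 2, and 0 lay below the 20th percentile on any array. Tpbg, Ntng2 and Fn1 stayed within 2-fold in both pairs. This list holds Nr4a2, one of the genes closest to Dio2. Since the direction of the list was known from earlier results of these data, the count of 7 is not an independent result. The part of these regions in the Dio2, Slco1c1 and Crym values was not tested. In bulk tissue, fewer cells of a type and less RNA per cell cannot be told apart.

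The markers of meninges had a summed signal of 8497 on the knockout and 10463 on the control array of replicate 1, and of 1592 on the knockout and 1314 on the control array of replicate 2. The ratios were 0.812 and 1.21, while single members went both ways, with 6 of 8 lower in pair 1 and 4 of 8 lower in pair 2. The largest part of this sum on the replicate 1 arrays was Ptgds, with 5890 on the knockout and 4496 on the control array. Its ratios were 1.31 and 0.460. In pair 1, 3 of the 8 genes were over 2-fold lower and 0 over 2-fold higher. These were Dcn, Ogn (ratios 0.340 and 1.28) and Slc6a13 (0.310 and 0.768). In pair 2, 1 gene was over 2-fold higher and 1 over 2-fold lower. Dcn, one of the genes closest to Dio2, belongs to this list, with ratios of 0.292 and 2.72. For the cells in which Dio2 and Slco1c1 are best known, glia and vessels, single markers spread more widely than the sums. The sum of 9 genes of astrocytes and radial glia had ratios of 1.09 in pair 1 and 0.868 in pair 2, with 6 of 9 higher on the knockout array in pair 1 and 1 of 9 in pair 2. That is the reverse of the order seen for Dio2. This sum is mostly Fabp7, a fatty acid binding protein gene of radial glia, with ratios of 1.02 and 0.988. Aqp4, the astrocytic water channel gene, had ratios of 2.89 and 0.341, Gja1, the gap junction gene, 1.67 and 0.510, and Slc1a2, a glutamate transporter gene, 1.71 and 0.803. Aldh1l1, at 1.17 and 0.817, and Slc1a3, at 1.04 and 0.770, also had this order, which 6 of the 9 genes shared. Sox9, Gfap and Aldoc did not share it. Sox9 had the order of Dio2, with ratios of 0.652 and 1.10. Gfap, at 0.928 and 0.706, and Aldoc, at 0.943 and 0.897, were lower on the knockout array in both pairs. The sum of 8 endothelial genes had ratios of 1.04 and 0.979, with 5 of 8 lower in pair 1 and 4 of 8 in pair 2. Among them the endothelial receptor gene Tek had ratios of 0.499 and 0.998, and the cadherin gene Cdh5 0.501 and 0.992. These were the lowest pair 1 ratios of the list, from signals of 115.8 and 82.2 on the knockout array of replicate 1. The 3 genes higher on the knockout array in pair 1 were Flt1 (1.44 and 1.02), Cldn5 (1.23 and 0.900) and Slc2a1 (1.14 and 1.03). The part of these cells in the Dio2 and Slco1c1 values was not tested. In each of these 3 lists, 0 members lay below the 20th percentile on any array, apart from 1 meningeal gene on the knockout array of replicate 2.

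The choroid plexus list, whose sum is mostly Ttr, had ratios of 1.19 and 2.37. In each pair 6 of its 8 genes were higher on the knockout array, while 2 lay below the 20th percentile on the control array of replicate 2. Besides Ttr, those higher in both pairs were Folr1 (1.96 and 1.65), Kcnj13 (1.93 and 1.47), Cldn2 (2.24 and 1.68) and Aqp1 (1.41 and 1.78). Otx2 (0.949 and 0.552) was lower in both, and Clic6 and Sostdc1 had opposite directions in the pairs. The part of choroid plexus tissue in the Ttr and Slco1c1 values was not tested. The liver list had ratios of 0.34 in pair 1, where all 7 genes were lower on the knockout array, and 1.02 in pair 2, where 4 of 7 lay below the 20th percentile on each array. Within pair 2, Apoa1 and Apoa2 of this list were brighter, at the 58.4 and 44 percentiles of the knockout array and the 57 and 41.6 percentiles of the control array. The part of liver RNA in the members' values was not tested.

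**Figure D4:**
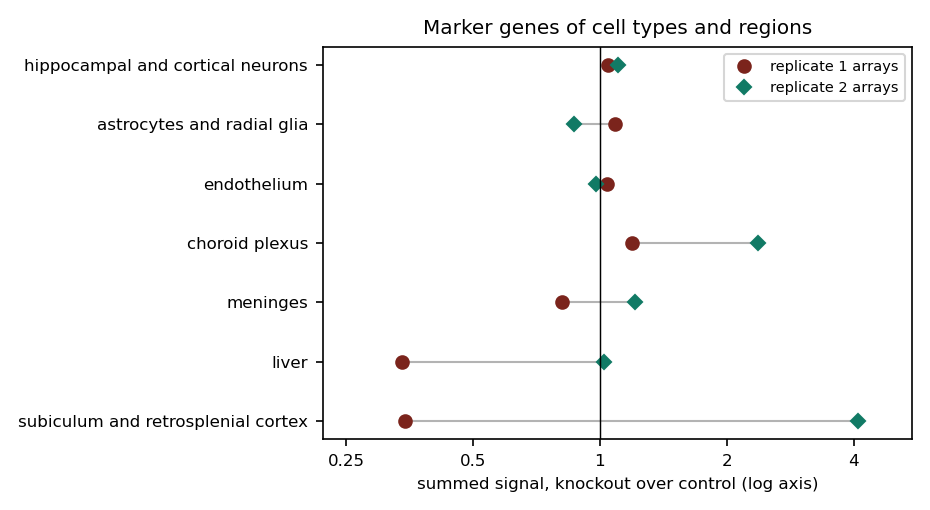
Summed signal of marker genes, knockout over control on a log axis, for each cell type or region, with circles for the replicate 1 arrays and diamonds for the replicate 2 arrays. The subiculum and retrosplenial cortex list lies at 0.344 and 4.09, the astrocyte and radial glia list at 1.09 and 0.868.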

How the data were processed

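The authors deposited signal intensities on a linear scale for 2 knockout and 2 control arrays, which per the submitters' processing notes came from MAS5. Version, scaling target and genome build were not given in the sources used here. Probe sets were named from the platform annotation. The members, the gene lists and the tests were chosen with earlier results of these data known. Values were taken as log2(signal + 32.56), probe sets were filtered on their mean at the 40th percentile, and limma 3.58.1 in R 4.3.3 (lmFit, and eBayes with trend) tested knockout minus control on 4 arrays over all kept probe sets, with Benjamini-Hochberg adjustment at 0.05. The scripts were tested on simulated data. The number of arrays limits the precision, since an exact permutation test of 2 against 2 cannot go below p = 0.333. All members were named. Of the wider list, genes over 2-fold apart in a pair and up to 3 per role with the highest mean were named, and the 3 nearest genes of each member over 2-fold apart. Marker sums used each gene's brightest probe set. Alternatives changed the normalization, pseudocount, filter, probe set choice, eBayes settings, block and arrays. Promoter sequences came from RefSeq (GRCm38.p6).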

Additional observations from a re-analysis of the deposited data

How the results depend on the processing

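Limma called 0 probe sets and 0 members under each of the 16 alternatives. The replicate number as a block cannot move a fitted difference in this balanced design (0.03 for Dio2 1418937_at in both fits), and both fits called 0 probe sets. The labels do not say that the numbers mark litters or days, and the correlation of their deviations, 0.826 across genes, includes the shared scale. Leaving out 1 array moved the fitted differences between -1.91 and 1.98 for Dio2, -1.26 and 1.32 for Slco1c1, -1.19 and 1.08 for Crym, -0.60 and 0.75 for Thra, -1.13 and 0.68 for Klf9, and -0.37 and 0.21 for Hr, because the 2 scales then weigh unequally on the groups; the lone array of a group is assumed to vary like the others. Dio2 also turned sign, to -0.039, with a pseudocount at the 40th percentile. Its differences were then -1.50 in pair 1 and 1.42 in pair 2, in place of -1.54 and 1.60, and the fitted difference is the mean of the pairs. Of 36 differences within a pair, 3 changed sign in 5 alternatives of scaling or pseudocount, each of them near 0 (Thra 1426997_at, Klf9 1452723_at in pair 2, Klf9 1422264_s_at in pair 1). Dio2 1418937_at ran between -1.58 and -1.50 in pair 1 and between 1.42 and 2.03 in pair 2, and Crym between 0.97 and 1.001 and between -1.29 and -1.09. The filter left out Hr at the 60th percentile and after quantile normalization. Dim probe sets depended most on the pseudocount: without one, the pair 1 difference of Klf9 1436763_a_at was 3.68 in place of 1.56, and that of Hr 1422110_at 2.38 in place of 1.17.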
